A study of Mus musculus with 16 samples.

Results

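The genes described here are 36 acute phase and interleukin-6 (IL-6) pathway genes measured in mouse liver. They were taken by symbol from a table of 35502 genes, as a list of positive and negative acute phase genes with receptors and regulators of IL-6 and IL-1 signalling. Of these, 35 passed the filter on low counts together with 13379 genes in all, and A2m, alpha-2-macroglobulin, did not, with at most 0.237 CPM (the share of a library's counts, scaled to a common total) in any library. Liver RNA of 16 individual mice was sequenced, in 4 groups of 4, with 1 library per mouse. Mature LERKO mice carry Cre, which deletes oestrogen receptor alpha (Esr1) in the liver, and mature controls carry the floxed allele without Cre. Immature LERKO mice and immature controls are the same genotypes under the immature label. The series title sets the knockout before or after sexual maturity. The labels name a stage without saying if it is that of the knockout or of the sampled liver, and they give no age, sex, Cre construct, illness or treatment of any mouse. Below, mature, immature and stage stand for these labels and not for a known age of the sampled mice. Libraries are numbered within a group by accession, and the numbers are names only.

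The acute phase response is the change in the proteins a liver secretes during infection or tissue injury. IL-6 binds its receptor on hepatocytes together with the shared chain gp130, Janus kinases then activate the transcription factor STAT3, and IL-1 and tumour necrosis factor act in parallel through NF-κB. With factors of the C/EBP family these raise positive acute phase proteins, such as serum amyloid A, haptoglobin and fibrinogen, while output of negative acute phase proteins such as albumin and transthyretin goes down. SOCS3 is induced by STAT3 and limits the signal.

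Values are counts per gene, expressed as CPM after scaling by TMM factors, so that levels can be compared between libraries. Total counts ran from 18123974 to 23213905 per library. Esr1, the targeted gene, stood at 13.9 to 19.1 CPM in mature LERKO, against 66.7 to 110 CPM in mature controls. It stood at 10.7 to 15.95 CPM in immature LERKO, against 55.3 to 89.0 CPM in immature controls. Both differences passed the test (log2 fold changes -2.33 and -2.50, adjusted p = 1.57e-05 and 6.55e-06, edgeR quasi-likelihood test). One library stood apart from the rest. In library 4 of mature LERKO, Saa1 was 202 times and Saa2 402 times the highest other library of the group, against a limit of 10 times set for both. Library 1 of immature LERKO came next, at 2.65 times for Saa1 and 2.63 times for Saa2, and did not meet the limit. The comparisons of groups below are therefore given with all libraries and again without library 4 of mature LERKO. The members took 20.2% of all counts in that library (95% Wilson interval 20.22 to 20.26%), against 12.1 to 15.9% in the other 15. Such intervals cover counting error only, since reads without molecular identifiers are not independent molecules. The positive members took 14.6% there (14.57 to 14.60%), against 2.44 to 3.56% in the others, and Saa1 with Saa2 3.32% (3.31 to 3.32%), against 0.00215 to 0.0179%. Alb took 5.26% (5.25 to 5.27%), against 8.77 to 11.7%.

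Many members lie in clusters of related genes. On GRCm38 (mm10, GENCODE vM21 positions), Saa3, Saa4, Saa1 and Saa2 follow each other on chromosome 7 with gaps of 7.9 to 12.3 kb. Orm1, Orm3 and Orm2 lie on chromosome 4, Fgg, Fga and Fgb on chromosome 3, Serpina3k, Serpina3m and Serpina3n on chromosome 12, Itih4 and Itih3 on chromosome 14, Mt2 and Mt1 on chromosome 8, and Crp and Apcs on chromosome 1. Saa1 spans chr7:46740497-46742980 on the minus strand and Saa2 chr7:46751790-46754313 on the plus strand, facing away from each other 8.8 kb apart. The share of 50-base stretches of the transcript found in another gene's transcripts was 14.8% for Saa1, 9.12% for Saa2, 20.4% for Orm1, 22.7% for Orm2, 14.0% for Serpina3k and 19.1% for Serpina3m. The sources used here do not say how reads shared by such copies were counted, so the split between these relatives is uncertain to that extent. Antisense Gm45774 covers 73.5% of the exonic bases of Mt2, and with the strand setting of the counting not given, reads of that pair cannot be told apart.

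Promoter sequence was available for 28 of the 36 members, from RefSeq on GRCm38.p6, as windows of 250 bases before and 50 bases after a transcript start. The 250 bases before the start are printed for 6 members: Saa1 and Saa2 as the most extreme pair, Orm2 as the orosomucoid that stands apart from its neighbours, Fgb for the fibrinogen cluster, and Steap4 and Cxcl1 as the members with the smallest p-values in mature LERKO against control without library 4 of mature LERKO. Each reads 5′ to 3′ on the gene's own strand, and capitals mark matches, on either strand, to a STAT-type (TTCNNNGAA), C/EBP-type (TTNNGNAA) or NF-κB-type pattern (GGG, any 3 bases, then TTCC).
Saa1 (chr7:46742981-46743230, minus strand): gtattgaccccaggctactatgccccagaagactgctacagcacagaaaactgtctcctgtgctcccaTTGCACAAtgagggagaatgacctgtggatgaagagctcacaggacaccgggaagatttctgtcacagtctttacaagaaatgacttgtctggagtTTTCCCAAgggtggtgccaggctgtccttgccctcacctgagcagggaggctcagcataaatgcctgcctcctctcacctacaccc
Saa2 (chr7:46751583-46751832, plus strand): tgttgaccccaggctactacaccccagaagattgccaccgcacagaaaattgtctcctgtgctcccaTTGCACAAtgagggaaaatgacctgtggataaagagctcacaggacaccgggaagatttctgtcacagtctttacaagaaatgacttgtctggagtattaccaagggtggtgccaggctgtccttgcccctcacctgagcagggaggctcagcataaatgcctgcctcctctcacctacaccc
Orm2 (chr4:63362199-63362448, plus strand): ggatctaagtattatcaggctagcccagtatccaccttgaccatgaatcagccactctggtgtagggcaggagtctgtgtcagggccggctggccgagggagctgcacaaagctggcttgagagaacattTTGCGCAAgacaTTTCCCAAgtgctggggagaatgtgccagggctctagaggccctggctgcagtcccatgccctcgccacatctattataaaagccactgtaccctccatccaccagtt
Fgb (chr3:83049864-83050113, minus strand): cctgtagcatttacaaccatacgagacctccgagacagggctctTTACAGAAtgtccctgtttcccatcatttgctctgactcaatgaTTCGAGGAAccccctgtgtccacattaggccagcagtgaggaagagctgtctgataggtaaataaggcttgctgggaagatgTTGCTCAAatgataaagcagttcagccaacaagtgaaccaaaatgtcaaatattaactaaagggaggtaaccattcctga
Steap4 (chr5:7960222-7960471, plus strand): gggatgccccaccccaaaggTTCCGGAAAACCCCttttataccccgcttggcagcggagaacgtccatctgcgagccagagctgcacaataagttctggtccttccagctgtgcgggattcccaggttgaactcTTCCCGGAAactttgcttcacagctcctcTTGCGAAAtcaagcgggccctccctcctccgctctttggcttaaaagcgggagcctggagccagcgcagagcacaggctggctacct
Cxcl1 (chr5:90890995-90891244, plus strand): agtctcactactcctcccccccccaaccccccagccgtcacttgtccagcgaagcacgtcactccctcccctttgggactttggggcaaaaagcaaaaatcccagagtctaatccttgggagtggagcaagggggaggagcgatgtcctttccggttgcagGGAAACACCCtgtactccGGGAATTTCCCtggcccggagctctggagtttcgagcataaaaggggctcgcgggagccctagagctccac

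Saa1 and Saa2 were 95.3% identical over their promoter windows, and both hold the C/EBP-type match TTGCACAA, 182 bases before the start in Saa1 and 183 in Saa2. Saa1 has a further C/EBP-type match, TTTCCCAA, 86 bases before the start, and Saa2 has none there. Orm2 holds 2 C/EBP-type matches, 120 and 108 bases before the start, and its window was 86.2% identical to that of Orm3. Fgb holds the STAT-type match TTCGAGGAA 162 bases before the start, between C/EBP-type matches at 206 and 80 bases; another, at 7 bases, runs past the printed stretch and is left in lower case. Steap4 holds the STAT-type match TTCCCGGAA at 116 bases, and its first run of capitals is a C/EBP-type match overlapping an NF-κB-type one. Cxcl1 holds 3 NF-κB-type matches, at 89, 71 and 70 bases, the last pair overlapping in 1 run, and no STAT-type or C/EBP-type match. Over the 32 member windows, 71.9% held a C/EBP-type match, against 40.7% of all 32851 RefSeq windows of this length. An NF-κB-type match was in 25.0% of member windows, against 5.56% of all, and a STAT-type match in 18.8%, against 8.3% of all. A pattern of metal response elements (TGCGCNC or TGCACNC) was in 25.0% of member windows, against 25.7% of all, with 3 matches in Mt1 and 4 in Mt2. For Mt2, Serpina3n, Socs3 and Alb, the stretches checked at the window's end were found in no GENCODE transcript of the gene. The start used for these windows is therefore less certain. The patterns can overlap each other, some members have several windows, and a match is a run of letters, not a bound site.

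Serum amyloid A proteins ride on high-density lipoprotein and are the main inducible acute phase proteins of the mouse. Saa1 stood at 94.4, 25.5, 33.1 and 19031 CPM in libraries 1 to 4 of mature LERKO, against 33.7, 24.7, 24.6 and 25.6 CPM in mature controls. It stood at 113, 15.2, 42.6 and 42.5 CPM in immature LERKO, against 29.2, 22.3, 40.7 and 39.4 CPM in immature controls. Library 4 of mature LERKO was thus far above every other library, and both LERKO groups also held library 1 at 94.4 or 113 CPM, above every control. Saa2 showed the same libraries: 49.6, 13.5, 13.9 and 19911 CPM in mature LERKO, against 17.1, 14.9, 10.1 and 10.4 CPM in mature controls. In immature LERKO it stood at 60.1, 6.50, 22.8 and 19.4 CPM, against 12.1, 10.2, 15.6 and 10.8 CPM in immature controls. The ratio of Saa2 to Saa1 counts was 1.05 in library 4 of mature LERKO, outside the 0.273 to 0.603 of the other 15. Saa3, an inducible member that macrophages also make, was at 10.2, 2.87, 4.26 and 31.6 CPM in mature LERKO, against 2.52 to 4.37 CPM in mature controls. Saa4, the constitutive family member, was at 1243 CPM in library 4 of mature LERKO, and at 254 to 653 CPM elsewhere. Per kilobase of exon, Saa4 averaged 172 CPM in mature controls and Saa1 10.95 CPM, so that the constitutive member had the higher level there. The size of that gap depends on the length used. All annotated exons of Saa1 cover 2478 bases and its longest coding transcript 609, while both lengths are 2094 bases for Saa4.

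Lcn2, lipocalin 2, which withholds iron from bacteria by binding their siderophores, was at 16.8, 10.8, 8.16 and 1519 CPM in mature LERKO, against 7.16, 3.67, 6.61 and 13.3 CPM in mature controls. In immature LERKO it was at 26.5, 7.30, 5.69 and 5.97 CPM, against 6.38, 5.01, 10.04 and 18.5 CPM in immature controls. Library 1 of immature LERKO, the highest of the immature group for Saa1 and Saa2, was the highest for Lcn2 as well.

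**Figure D1:**
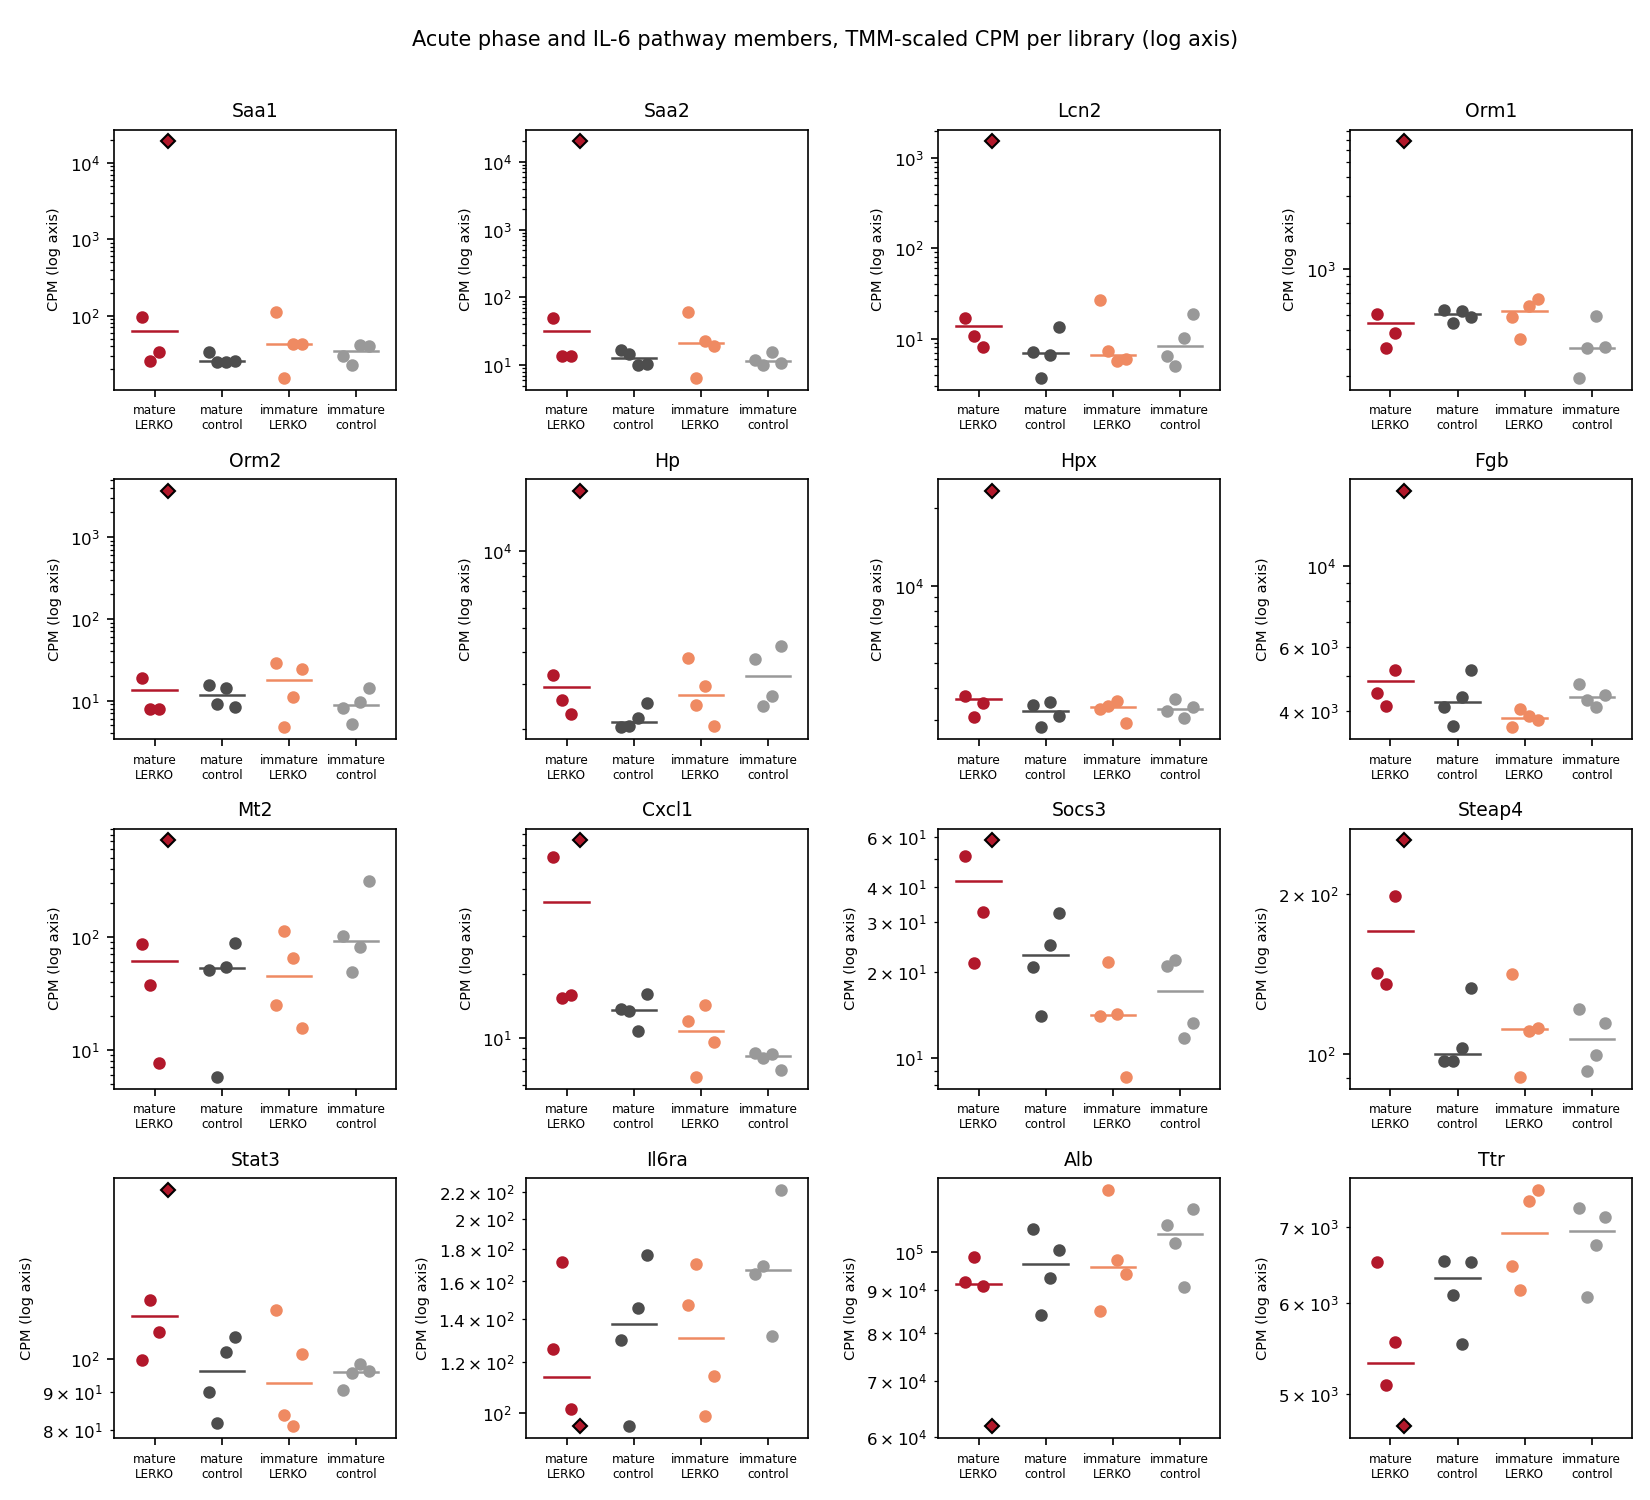
TMM-scaled CPM on log axes for 16 members, with 1 point per library and a line at each group's median; library 4 of mature LERKO is drawn as a diamond. The diamond lies above every other library for all members shown except Il6ra, where it is next to lowest at 95.4 CPM, and Alb and Ttr, where it is lowest at 61709 and 4681 CPM.

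Orosomucoids are serum glycoproteins that bind drugs and dampen inflammation. Orm1 was at 505, 306, 381 and 6824 CPM in mature LERKO, against 537, 446, 533 and 486 CPM in mature controls. Libraries 2 and 3 of mature LERKO lay below every mature control, library 1 among them and library 4 far above. Orm1 was at 487, 350.5, 572 and 636 CPM in immature LERKO, against 194, 303, 494 and 311 CPM in immature controls, and these groups overlapped. Orm2 was at 18.7, 7.84, 7.96 and 3674 CPM in mature LERKO, against 8.46 to 15.6 CPM in mature controls, and Orm3 was at 83.8 CPM in library 4 of mature LERKO against 1.35 to 8.44 CPM elsewhere. Orm2 made up 34.7% of all orosomucoid counts in library 4 (95% Wilson interval 34.5 to 34.9%), against 1.31 to 5.49% in the other 15, and Orm1 64.5%, against 93.3 to 97.8%. The makeup of the family differed in that library, as well as its total.

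Haptoglobin (Hp) captures free haemoglobin and hemopexin (Hpx) free haem. Hp was at 3272, 2592, 2297 and 17317 CPM in mature LERKO, against 2026, 2052, 2209 and 2526 CPM in mature controls. In immature LERKO Hp was at 3821, 2478, 2944 and 2061 CPM, against 3755, 2459.5, 2697 and 4226 CPM in immature controls. Hpx was at 23319 CPM in library 4 of mature LERKO, while the other 15 libraries, between 2815 and 3728 CPM, differed by no more than 1.32-fold, the narrowest range of any member. Ceruloplasmin (Cp), the copper-carrying ferroxidase of plasma, was at 3259.8 CPM in that library and at 823 to 1417 CPM elsewhere.

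The metallothioneins bind zinc and copper and are induced by metals, glucocorticoids and IL-6. Mt1 was at 207, 123, 43.8 and 1324 CPM in mature LERKO, against 164, 42.5, 167 and 222 CPM in mature controls. Mt2 was at 85.8, 37.4, 7.71 and 715 CPM in mature LERKO, against 50.9, 5.76, 54.7 and 89.0 CPM in mature controls. Mt2 was the member that varied most without library 4 of mature LERKO: its range over the other 15 libraries was 54.7-fold, from 5.76 CPM in library 2 of mature controls to 316 CPM in library 4 of immature controls.

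Steap4 is a metalloreductase of endosomes and the plasma membrane. It was at 142, 136, 199 and 252 CPM in mature LERKO, against 96.8, 97.1, 103 and 133 CPM in mature controls. Every mature LERKO library thus lay above every mature control, and these groups did not overlap for 3.9% of all genes either. It was at 141, 90.5, 111 and 112 CPM in immature LERKO, against 121, 93.0, 99.4 and 114 CPM in immature controls, with full overlap.

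The 3 fibrinogen chains, Fga, Fgb and Fgg, are assembled into the clotting protein and kept their proportions. Fgb was at 4478, 4136, 5192 and 16079 CPM in mature LERKO, against 4089, 3633, 4365 and 5169 CPM in mature controls. It was at 3603, 4053, 3865 and 3785 CPM in immature LERKO, against 4749, 4299, 4101 and 4428 CPM in immature controls. There every LERKO library lay below every control, and these groups did not overlap for 1.63% of all genes. Fga was at 14864 CPM and Fgg at 10720.2 CPM in library 4 of mature LERKO, against 3165 to 5450.2 CPM and 2324 to 4025 CPM in the other 15. The ratio of Fga to Fgb counts was 0.924 in library 4 of mature LERKO, within the 0.819 to 1.05 of the others, and that of Fgg to Fgb was 0.667, within 0.614 to 0.775.

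Among protease inhibitors and matrix carriers, Itih3 and Itih4, heavy chains of the inter-alpha-trypsin inhibitor family, were at 4992 and 9245 CPM in library 4 of mature LERKO. In the other 15 libraries Itih3 ranged from 691 to 1249 CPM and Itih4 from 2427 to 3328 CPM. Serpina3n, a serine protease inhibitor induced by inflammation, was at 2268 CPM there and at 333 to 618 CPM elsewhere. Its neighbours did not share that distance. Serpina3m was at 901 CPM against 502 to 749.9 CPM, and Serpina3k, at 7938 CPM, was below library 2 of immature LERKO, at 10172 CPM.

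Pentraxins recognise microbes and dying cells. Apcs, serum amyloid P and the main acute phase pentraxin of the mouse, was at 1465 CPM in library 4 of mature LERKO and at 55.9 to 125 CPM elsewhere. Crp, C-reactive protein, which is only a minor acute phase protein in mice, was at 655 CPM there and at 262 to 371 CPM elsewhere. The ratio to the median of the other 15 libraries was 18.9 for Apcs and 2.07 for Crp. Lbp, which presents bacterial lipopolysaccharide, was at 395 CPM, against 64.7 to 163 CPM, and its partner Cd14, at 4.03 CPM, was close to the 1.23 to 3.39 CPM of the others.

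The receptors and regulators had far smaller distances. Il6ra, the ligand-binding IL-6 receptor chain, was at 126, 172, 102 and 95.4 CPM in mature LERKO, against 129.8, 95.3, 145 and 176 CPM in mature controls, so that the library with the highest Saa1 had the lowest Il6ra of its group. Stat3, the signal transducer and itself a target of the pathway, was at 99.6, 120.0, 109 and 169 CPM in mature LERKO, against 90.0, 81.8, 102 and 107 CPM in mature controls. Socs3, the feedback inhibitor, was at 51.1, 21.6, 32.6 and 58.2 CPM in mature LERKO, against 20.9, 14.0, 24.9 and 32.3 CPM in mature controls. For Socs3 library 4 was only 1.14 times the next library, which was library 1 of mature LERKO. Il1r1, the signalling IL-1 receptor, was at 43.8, 60.0, 75.1 and 136 CPM in mature LERKO, against 36.6, 25.9, 45.3 and 57.6 CPM in mature controls. Il1rn, the IL-1 receptor antagonist, was at 7.26, 3.12, 1.47 and 15.4 CPM in mature LERKO, against 9.65, 4.51, 5.67 and 9.55 CPM in mature controls, with library 4 highest and library 3 lowest of all 16.

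Lrg1, a secreted leucine-rich glycoprotein, was at 217, 289, 227 and 2698 CPM in mature LERKO, against 187, 152, 198 and 271 CPM in mature controls. Cxcl1, a chemokine that attracts neutrophils, was at 70.6, 15.4, 15.9 and 84.4 CPM in mature LERKO, against 13.6, 13.3, 10.7 and 15.98 CPM in mature controls. It was at 12.004, 6.56, 14.3 and 9.60 CPM in immature LERKO, against 8.50, 8.06, 8.39 and 7.04 CPM in immature controls. Libraries 1 and 4 of mature LERKO stood together for Cxcl1 and Socs3, while for Saa1 library 4 was 202 times library 1.

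Both negative acute phase members, Alb and Ttr, were lower in library 4 than in any other library. Alb, albumin, was at 92043, 98718, 90979.8 and 61709 CPM in mature LERKO, against 106609, 83890.3, 93024 and 100623 CPM in mature controls. Ttr, transthyretin, which carries thyroxine and retinol-binding protein, was at 6520.5, 5087, 5546 and 4681 CPM in mature LERKO, against 6527, 6099, 5525 and 6513 CPM in mature controls. Library 4 was at 63.2% of the median of the other 15 for Alb and 71.9% for Ttr. The TMM factor of library 4 was 0.852, against 0.943 to 1.07 in the other 15, and is included in these values.

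Across the 35 tested members, library 4 of mature LERKO was the highest of 16 for 31, the lowest for 2 and in between for 2, Serpina3k and Il6ra. Of all tested genes it was the highest for 17.4% and the lowest for 16.8%, the largest shares of any library. It exceeded the highest other library more than 2-fold for 21 members, as it did for 1.03% of all tested genes, and more than 10-fold for 6 members, Saa1, Saa2, Lcn2, Orm1, Orm2 and Apcs, as it did for 0.0972% (13 genes). Saa1 and Saa2 chose this library, so their values are a description, and the counts include them. The median member stood at 3.82 times the median of the other 15 libraries. In decreasing order the ratios were 1433 for Saa2, 576 for Saa1, 379 for Orm2, 208 for Lcn2, 18.9 for Apcs, 15.3 for Orm3, 14.0 for Orm1, 13.1 for Mt2 and 11.9 for Lrg1. Below these stood Mt1 at 7.94, Saa3 at 7.23, Cxcl1 at 7.03, Hpx at 6.89 and Hp at 6.86, and the fibrinogen chains at 3.64 to 3.89. Over the 15 other libraries, 13 members ranged less than 2-fold. Library 2 of mature controls was the lowest of those 15 for 12 members. Library 2 of immature LERKO was the highest for 7 and the lowest for 7 others. Library 4 of immature LERKO was the lowest for 7, and library 4 of immature controls the highest for 7. Over all tested genes and 16 libraries, library 2 of mature controls was the lowest for 2.90%. Library 2 of immature LERKO was the highest for 3.85% and the lowest for 4.84%. Library 4 of immature LERKO was the lowest for 6.19%, and library 4 of immature controls the highest for 6.32%.

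**Figure D2:**
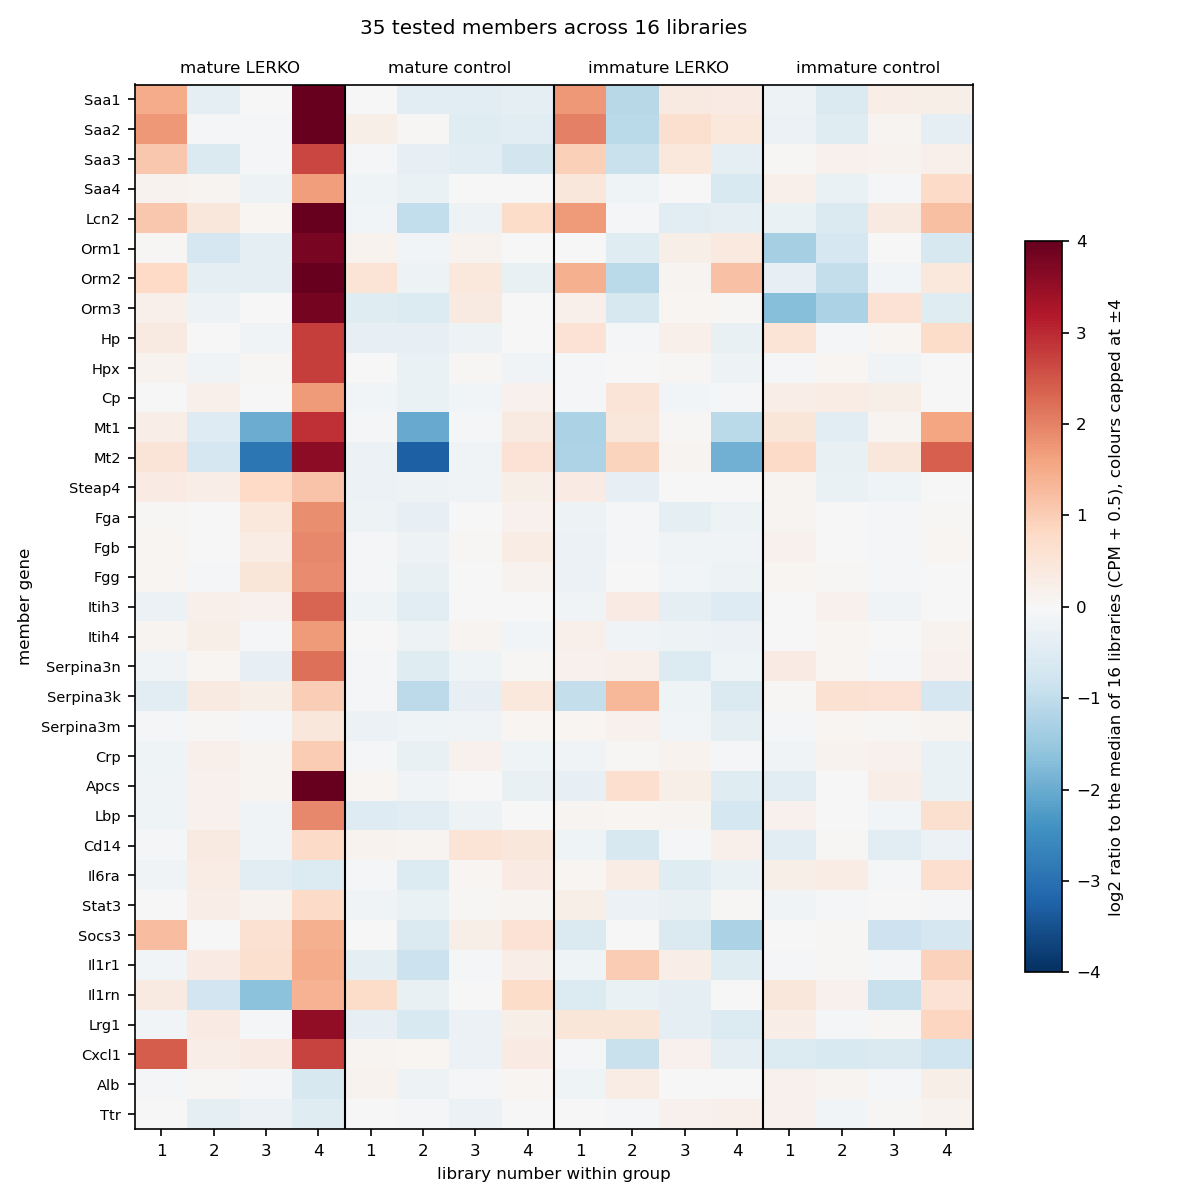
Log2 ratio of each tested member's CPM to its median over 16 libraries, with members in rows by role and libraries in columns by group, capped at 4 in either direction. The dark column is library 4 of mature LERKO, the highest of 16 for 31 members, and Mt1 and Mt2 are the members whose colour varies most among the other libraries.

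In mature mice, no member passed the threshold between LERKO and control, although most fold changes were positive. The question is whether loss of the receptor in the groups labelled mature goes with another level of acute phase transcripts. With all libraries, 0 of 35 members had an adjusted p below 0.05 (edgeR quasi-likelihood test, Benjamini-Hochberg over 13379 genes), where 0.00747% of all genes did, which is Esr1 alone. At an unadjusted p below 0.05, 24 members were higher and 0 lower, where 7.3% of all genes passed that mark and 3.45% passed it as higher. Positive fold changes were seen for 30 of 35, against 48.2% of all genes, and the median log2 fold change was 0.93, against -0.01 over all genes. DESeq2 called 2 members higher, Steap4 and Cxcl1, but the share of all genes that DESeq2 called was not counted. The smallest p-values were those of Saa2, with a log2 fold change of 8.57 (SE 2.04), Saa1 at 7.46 (SE 1.79) and Cxcl1 at 1.79 (SE 0.44), each with an adjusted p of 0.481 in edgeR. Steap4 had 0.76 (SE 0.19) and the same adjusted p in edgeR, and it was the only member whose groups did not overlap, as they did not for 3.9% of all genes. By role, positive fold changes were seen for 5 of 5 in the serum amyloid and lipocalin group, 3 of 3 orosomucoids, 6 of 6 haem and metal carriers, 3 of 3 fibrinogen chains, 5 of 5 tested protease inhibitors, 3 of 4 pentraxin and pattern recognition genes, 3 of 5 cytokine signalling genes, 2 of 2 other inflammation genes (Lrg1 and Cxcl1) and 0 of 2 negative acute phase genes. The count was 1 of 3 without library 4 of mature LERKO for orosomucoids and 4 of 6 for haem and metal carriers, and as above in the other roles.

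Without library 4 of mature LERKO, the fold changes of most members shrank. Then 26 of 35 were positive, against 49.5% of 13541 genes, with a median of 0.17, and 0 passed the adjusted threshold, where 0.00738% of all genes did. At an unadjusted p below 0.05, 2 members were higher, where 8.78% of all genes passed that mark and 5.35% as higher. These were Cxcl1, with a log2 fold change of 1.35 (SE 0.40), and Steap4, with 0.59 (SE 0.17), both with an adjusted p of 0.542 in edgeR. Saa1 had 0.93 (SE 0.51), Saa2 0.99 (SE 0.55) and Socs3 0.62 (SE 0.34). The sign was the other one than with all libraries for 4 members: Orm1 at -0.31, Orm2 at -0.02, Mt1 at -0.24 and Mt2 at -0.19. The mature LERKO and control libraries of Steap4 still did not overlap, as for 8.07% of all genes. The 95% interval lay within 2-fold in either direction for 22 members, or 62.9%, against 82.4% of all genes, among them Hpx (0.918 to 1.29 times control), Fgb (0.903 to 1.31) and Alb (0.816 to 1.22). With all libraries it did so for 7 members, against 81.2% of all genes. Mature controls 1 and 2 and library 4 of immature LERKO held over 100 CPM of summed skeletal muscle transcripts. Without these 3 libraries, 8 members had an unadjusted p below 0.05 with library 4 of mature LERKO, where 2.66% of all genes did, and 1 without it, where 3.32% of all genes did and the median of members was 0.04 (exclusions in part added after seeing the data).

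In immature mice, no member passed the threshold between LERKO and control livers. With all libraries 0 of 35 passed the adjusted threshold, where 0.00747% of all genes did, and 0 had an unadjusted p below 0.05, where 2.76% of all genes did. DESeq2 called 0. Positive fold changes were seen for 14 of 35, against 53.2% of all genes, with a median of -0.07. The smallest p-values were those of Il6ra, with a log2 fold change of -0.37 (SE 0.23), Mt2 at -1.33 (SE 1.06) and Mt1 at -0.91 (SE 0.80), all with an adjusted p of 1.00 in edgeR. For Fgb the immature groups did not overlap, as for 1.63% of all genes, at a log2 fold change of -0.20 (SE 0.33). Library 4 of mature LERKO is in neither group, but it enters this fit through the filter, the scaling and the shared estimate of spread. Without it, 16 of 35 fold changes were positive (56.7% of all genes), and 2 members had an unadjusted p below 0.05, where 4.02% of all genes did and 3.07% as higher, and both were higher in LERKO: Orm1 at 0.67 (SE 0.24) and Saa2 at 1.18 (SE 0.52), with an adjusted p of 0.994 in edgeR. Without library 2 of immature LERKO, 1 member had an unadjusted p below 0.05 with edgeR, and the share of all genes in that fit was not counted. The 95% interval without library 4 of mature LERKO lay within 2-fold for 25 members, or 71.4%, against 84.6% of all genes, but not for Saa1 (0.813 to 3.29 times control) or Lcn2 (0.53 to 2.52).

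**Figure D3:**
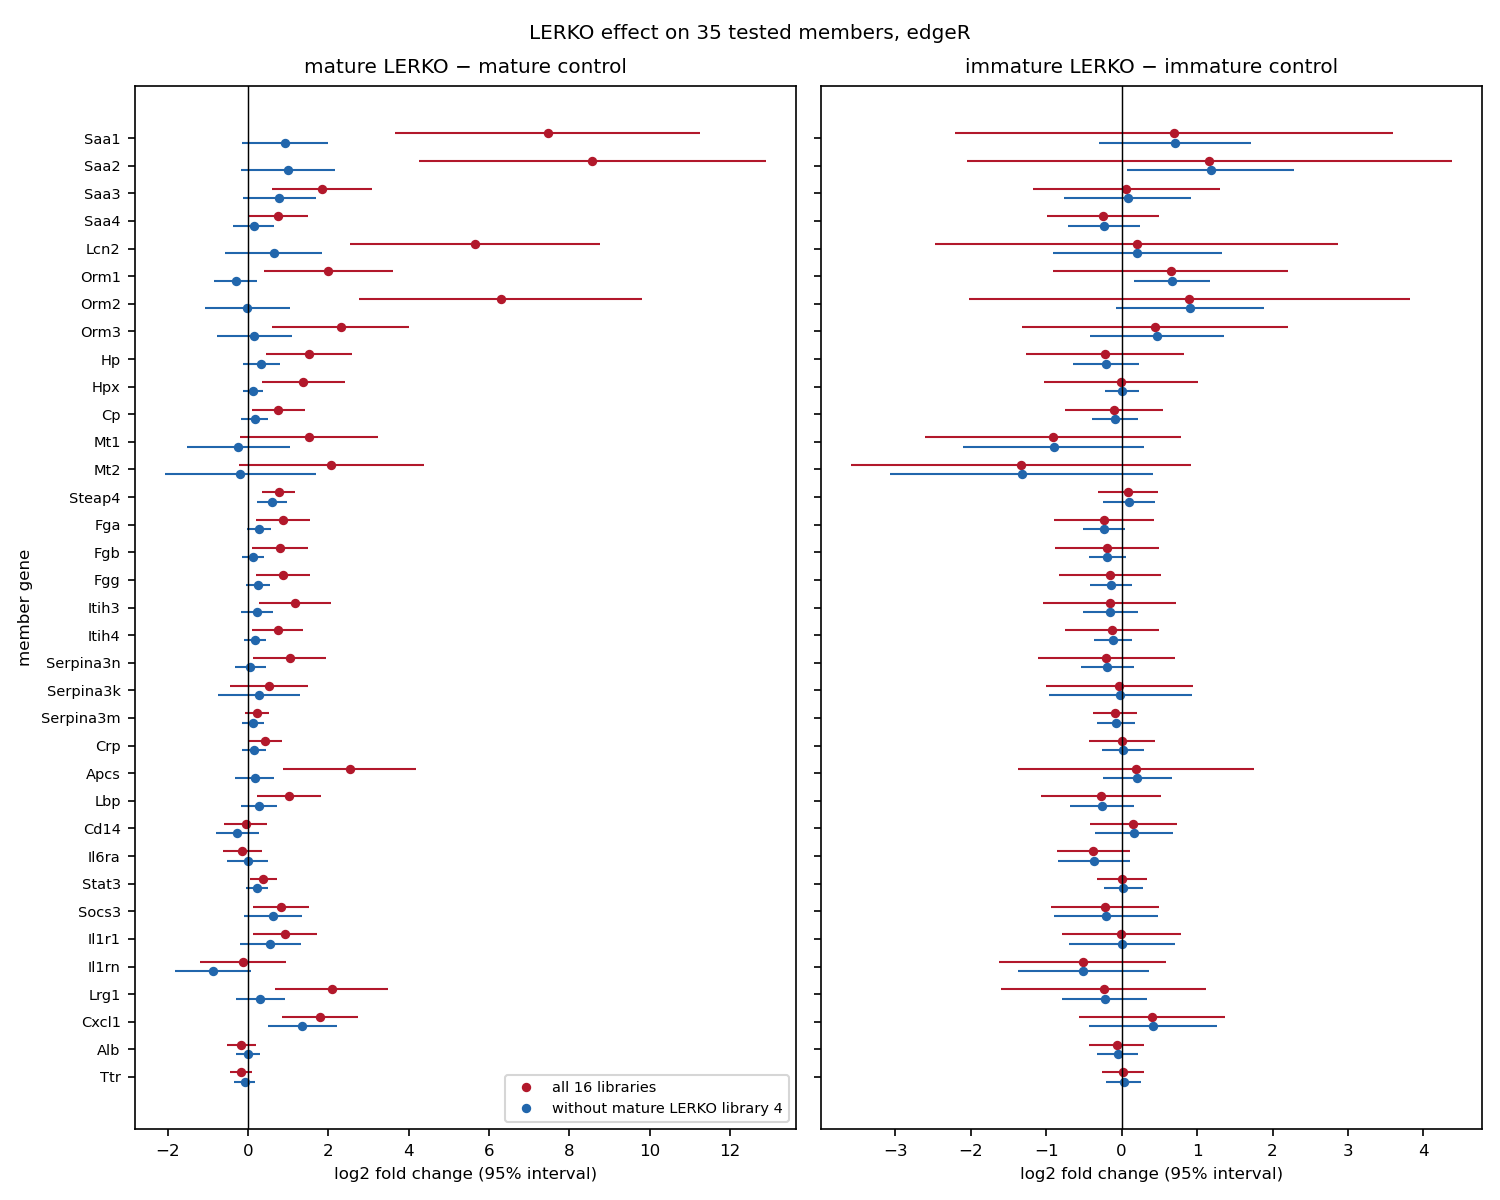
Log2 fold change of LERKO over control with its 95% interval for the 35 tested members, in mature mice on the left and immature mice on the right, in red with all 16 libraries and in blue without library 4 of mature LERKO. In mature mice the red points of Saa1, Saa2, Lcn2 and Orm2 lie between 5.65 and 8.57 and the blue ones between -0.02 and 0.99.

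The difference between the LERKO effects of the mature and immature stages did not pass for any member. With all libraries it was positive for 32 of 35 members, against 48.7% of all genes, with a median of 1.12. None passed the adjusted threshold in edgeR, where 0% of all genes did, and 18 had an unadjusted p below 0.05, where 6.35% of all genes did, 2.01% with a positive difference. Saa1 had 6.77 (SE 2.10) and Saa2 7.41 (SE 2.33), each with an adjusted p of 0.716 in edgeR, and DESeq2 called 0. Without library 4 of mature LERKO the median was 0.29, 27 of 35 were positive (47.2% of all genes) and 2 had an unadjusted p below 0.05, where 8.06% of all genes did, 3.07% with a positive and 4.98% with a negative difference. These were Orm1 at -0.97 (SE 0.35) and Fga at 0.50 (SE 0.19), with an adjusted p of 0.591 in edgeR. The count of 18 was also smaller without other single libraries: 8 without library 4 of immature LERKO, 9 and 10 without mature control libraries 2 and 1, 10 without library 3 of immature LERKO, and 11 without mature control library 3 or immature control library 1. The share of all genes past that mark in these fits was not counted, so the smaller counts may not be particular to the members.

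Between stages in LERKO, mature over immature, 32 of 35 fold changes were positive, against 50.4% of all genes, with a median of 0.97. None passed the adjusted threshold with edgeR, where 0% of all genes did, while 20 members were higher and 1 lower at an unadjusted p below 0.05, where 4.93% of all genes passed that mark, 3.09% as higher and 1.84% as lower. DESeq2 called 2, Socs3 and Cxcl1, but the share of all genes it called here was not counted. Cxcl1 had a log2 fold change of 2.13 (SE 0.45), Socs3 1.48 (SE 0.34) and Saa2 7.52 (SE 1.95), each with an adjusted p of 0.951 in edgeR. Without library 4 of mature LERKO, 20 of 35 were positive (48.9% of all genes), the median was 0.03 and 7 members had an unadjusted p below 0.05, where 5.82% of all genes did, 3.27% as higher and 2.55% as lower. Higher were Cxcl1 (1.67, SE 0.41), Socs3 (1.26, SE 0.34), Steap4 (0.49, SE 0.17), Fga (0.38, SE 0.14), Fgg (0.31, SE 0.14) and Fgb (0.27, SE 0.13), and lower was Ttr (-0.27, SE 0.12), with an adjusted p of 0.815 in edgeR. Socs3 in immature LERKO was at 14.1, 21.7, 14.2 and 8.57 CPM. For Cxcl1, Fga and Fgb the stages did not overlap in LERKO, as for 1.52% of all genes with library 4 and 4.21% without it.

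Between stages in controls, no member passed the threshold. Positive fold changes were seen for 11 of 35, mature over immature, against 53.1% of all genes, with a median of -0.11, and for 8 of 35 without library 4 of mature LERKO, against 50.4% of all genes, with a median of -0.12. None passed the adjusted threshold in edgeR, where 0% of all genes did, and DESeq2 called 0. At an unadjusted p below 0.05 there was 1 member, where 9.84% of all genes passed, 7.56% as higher: Cd14, at 2.44, 2.42, 3.39 and 3.15 CPM in mature controls, against 1.503, 2.27, 1.46 and 1.76 CPM in immature controls. Its fold change on the log2 scale was 0.71 (SE 0.27), with an adjusted p of 0.406 in edgeR. The count was 0 without mature control library 3 or immature control library 3, where the share of all genes was not counted. Without library 4 of mature LERKO it was 4, where 12.8% of all genes passed, 9.48% as higher and 3.3% as lower: Cd14 (0.69, SE 0.23) and Orm1 (0.61, SE 0.24) higher, Hp (-0.59, SE 0.20) and Lbp (-0.52, SE 0.20) lower, with adjusted p-values of 0.207 to 0.267 in edgeR. The groups did not overlap for Cd14 and Cxcl1, higher in mature controls, and Saa3, lower, as for 8.86% of all genes. The stage comparisons in LERKO and in controls use different mice, while each shares its mature or immature group with a LERKO comparison.

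The members varied more between mice of a group than most genes. The median within-group SD on the log2 scale was 0.62 over members, against 0.23 over all tested genes, and 0.33 against 0.21 without library 4 of mature LERKO. Without that library, Mt2 had 1.48, Mt1 0.98, Saa2 0.86 and Saa1 0.80, while Hpx had 0.13 and Ttr 0.14.

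Other genes of the pathway were taken from lists of 77 genes, of which 76 are in the table. None passed the adjusted threshold in any comparison in edgeR. In mature LERKO over control, an unadjusted p below 0.05 was seen for 3 of the other positive genes, all higher, for 1 of the other negative genes, lower, for 1 gene higher and 1 lower among those of IL-1, TNF and NF-κB, and for 0 in the other lists, where 7.3% of all genes passed that mark. With library 4 of mature LERKO left out, where 8.78% of all genes passed it, it was seen for 1 higher and 1 lower among the other positive genes, 1 lower among the other negative genes, 1 lower among those of IL-1, TNF and NF-κB, and 1 higher among the transcription factors. Il6 itself was at 0 in 13 libraries and at most 0.152 CPM, and it did not pass the filter on low counts, nor did the ligands Il11, Lif, Osm and Tnf. The ligands Il1a and Il1b did, at 0.948 and 1.42 CPM in library 4 of mature LERKO, against 0.841 to 3.22 CPM and 0.467 to 6.92 CPM elsewhere. In library 4 of mature LERKO no read of Il6, Il11, Lif or Osm was counted, and liver tissue does not show what other organs secrete. In mature LERKO over control, 48.2% of all genes had positive fold changes, and 49.5% without library 4 of mature LERKO. The counts of positive genes per list below stand beside these shares. Of the tested receptors listed with the IL-6 family, 4 of 5 had positive fold changes in mature LERKO over control (3 without library 4). Il22ra1, the IL-22 receptor, was at 0.51 and Il10rb, its partner, at -0.20, and neither binds IL-6 family ligands. Il6st, the gp130 chain, was at 172 CPM in library 4 of mature LERKO, against 131 to 231 CPM elsewhere. Osmr, the oncostatin M receptor, was at 7.40 CPM there and at most 3.15 CPM elsewhere. Of 12 JAK-STAT genes 8 were positive (8 without library 4), with Socs2 at 1.27 (1.53 without library 4) and Stat5a at 0.23. Of 15 IL-1, TNF and NF-κB genes 6 were positive (6 without library 4), with Nfkbia, the NF-κB inhibitor, at -0.33 (adjusted p = 0.565, edgeR) and Nfkbiz at 0.43. Of 8 transcription factors 3 were positive (4 without library 4), with Nr3c1, the glucocorticoid receptor, at 0.17 (0.29 without library 4) and Hnf4a at 0.22 (0.34). Of 17 other positive acute phase genes 11 were positive (7 without library 4), with Fgl1, a hepatokine related to fibrinogen, at 1.46 (adjusted p = 0.526, edgeR) and 0.34 without library 4, and Bcl3 at 0.66 and 0.64. Fgl1 was at 2526 CPM in library 4 of mature LERKO and at 270 to 536 CPM elsewhere. Of 11 other negative acute phase genes 8 were positive (8 without library 4), with a median of 0.05 (0.06 without library 4), and Tat, tyrosine aminotransferase, was at -1.01 (adjusted p = 0.481, edgeR) and -0.95 without library 4. These 11 went both ways in library 4 of mature LERKO, as seen after the values were known. It was the lowest of 16 for Serpina6, the corticosteroid carrier (328 CPM, against 665 to 1743 CPM elsewhere), for Rbp4, the retinol carrier (2063, against 2915 to 4747 CPM), and for Tat (858, against 875 to 2478 CPM). It was the highest for Trf, transferrin (51568 CPM, against 16431 to 19618 CPM), Ahsg (16179.8, against 8570.3 to 15057 CPM), Apoa4 (890.5, against 202 to 649 CPM), F12 (660.3, against 505 to 653 CPM) and Serpinc1 (2527, against 2147 to 2509 CPM). Gm20425 overlaps Trf on the same strand in the annotation, so the counting of their shared reads is uncertain.

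Sums of several marker lists were also the highest or lowest of 16 in library 4 of mature LERKO. The 10 neutrophil markers summed to 94.95 CPM there, against 1.84 to 5.89 CPM in the other 15 libraries, of which library 1 of mature LERKO was the highest. S100a8 was at 26.7 CPM, S100a9 at 32.0, Ngp at 15.2, Ltf at 7.82 and Camp at 4.92 in library 4. Of the 10, 0 were at 0 in library 4 of mature LERKO and 3 to 6 were at 0 in each of the others. The 10 Kupffer cell and macrophage markers summed to 474 CPM, the highest of 16, against 167 to 453 CPM. Singly, Clec4f (112 CPM), Cd5l (128 CPM) and C1qa (62.0 CPM) were the highest of 16 there. Each of the other Kupffer cell markers was higher in another library, such as Lyz2, at 49.2 CPM against 69.0 CPM in library 3 of mature controls. Endothelial markers, at 115 CPM against 166 to 360 CPM, stellate cell markers, at 84.8 against 199 to 469 CPM, and T, B and NK cell markers, at 2.90 against 3.77 to 9.58 CPM, were the lowest of 16. Hepatocyte markers summed to 21966 CPM in library 4, also the lowest, against 26777 to 38607 CPM. Singly, Apoa2, Cyp2e1, G6pc and Tat were the lowest of 16 there. The other hepatocyte markers were not, such as Asgr1, at 573 CPM against 438 to 577 CPM elsewhere. Muscle markers summed to 1.30 CPM in library 4 of mature LERKO, with 11 of 12 at 0, and to 845, 369, 0.670 and 55.8 CPM in mature controls. Pancreas and adipose markers summed to 10.01 CPM, within the 8.98 to 44.3 CPM of the others. In bulk tissue, fewer cells of a type, less RNA per cell and a change in single marker genes cannot be told apart. The part of these cells in the members' levels was not tested.

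**Figure D4:**
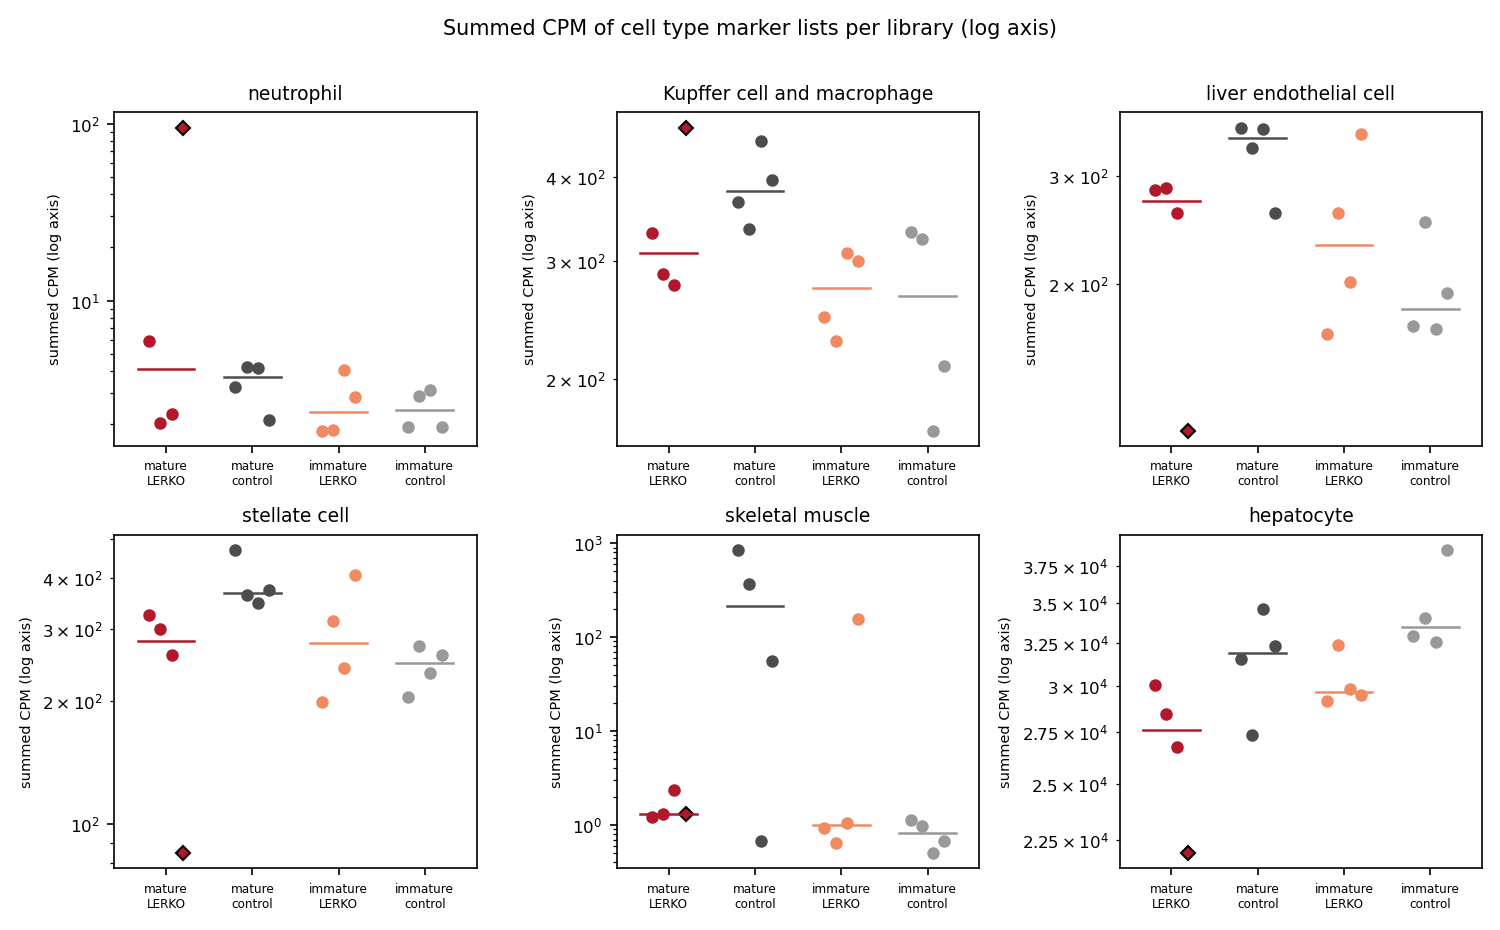
Summed CPM of marker genes of 6 cell types on log axes, with 1 point per library, a line at each group's median and library 4 of mature LERKO as a diamond. By these sums the diamond is highest for neutrophil and Kupffer cell markers and lowest for endothelial, stellate and hepatocyte markers. Muscle markers are high in mature controls 1 and 2 and in library 4 of immature LERKO.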

How the data were processed

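Per the labels' protocols, RNA was column-purified with DNase treatment from liver of individual mice, and stranded, paired-end mRNA libraries were made. The submitters' processing notes list STAR, limma, R 4.05 and the build mm10 without roles. No source used here states the counting program, annotation, or settings for strand and shared reads. The deposited values are 1 count per gene and library. Among the deposited columns some hold estimated counts, with 10 values of 2 genes not whole, and these were rounded.

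Genes were filtered with edgeR 4.0.16 (filterByExpr, minimum count 10, minimum total 15), scaled by TMM and tested with glmQLFit and glmQLFTest in R 4.3.3, in 1 model with a coefficient per group, so that all groups share the spread. P-values were adjusted by Benjamini-Hochberg over all 13379 tested genes (threshold 0.05). Each SE was obtained from the log2 fold change and its F statistic. DESeq2 1.42.0 and limma 3.58.1 served as alternatives. The default outlier rule of DESeq2 was kept and can withhold the p-value of a gene with an extreme count. Its counts of members can therefore rest on fewer members than those of edgeR. The common biological coefficient of variation was 21.2%. The fit was tested on simulated data.

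The members, the other lists and the rule for the library apart (Saa1 and Saa2 each over 10 times the highest other library of the group) were chosen with earlier results of these data known. Named were all members; per comparison those past the threshold or else the 3 with the smallest p; and per pathway list the 2 with the smallest p in mature LERKO against control. Other genes named were chosen after their values were seen. The mice are individuals, so p-values measure the spread between mice. Depth ran from 18123974 to 23213905 counts.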

Additional observations from a re-analysis of the deposited data

Results flagged for a closer look

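Of 140 combinations of member and group tested with Dixon's criterion for 4 samples, 27 held a library far from its group. The criterion's nominal rate is about 1 in 20 groups, which holds for normally distributed values. The share of all tested genes that it flags was not counted, so the 27 cannot be set against other genes. Library 4 of mature LERKO gave 21 of the 27, all high. That library was also the highest for 17.4% of all tested genes and the lowest for 16.8%. There the CPM were 19031 for Saa1, 19911 for Saa2, 1243 for Saa4, 1519 for Lcn2, 6824 for Orm1, 3674 for Orm2 and 83.8 for Orm3. They were 17317 for Hp, 23319 for Hpx, 3259.8 for Cp, 1324 for Mt1, 715 for Mt2, 14864 for Fga, 16079 for Fgb and 10720.2 for Fgg. For Itih3 the value was 4992 CPM, for Itih4 9245, for Serpina3n 2268, for Apcs 1465, for Lbp 395 and for Lrg1 2698 CPM. Saa1 and Saa2 chose this library, and the 21 genes come from 1 mouse.

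The other 6 came from 6 different libraries, all outside mature LERKO. In those groups such a number is close to what the nominal rate gives. Library 1 of mature controls was high for Saa1 at 33.7 CPM, and library 4 of mature controls for Steap4 at 133 CPM. In immature LERKO, library 1 was high for Lcn2 at 26.5 CPM, library 2 for Cp at 1417 CPM, and library 4 low for Lbp at 64.7 CPM. In immature controls, library 4 was high for Il1r1 at 91.1 CPM.

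For Fga and Lbp every mature LERKO library lay above the mature control mean and every immature LERKO library below the immature control mean. The share of all tested genes with this pattern was not counted, so these members cannot be set against it. The log2 difference of the LERKO effects, mature minus immature, was 1.12 for Fga and 1.30 for Lbp, which did not pass (adjusted p = 0.768 each, edgeR interaction). Without library 4 of mature LERKO it was 0.50 for Fga and 0.54 for Lbp (adjusted p = 0.591 and 0.617, edgeR).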

How the results depend on the processing

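No paired analysis was possible because the labels give the groups no shared replicate numbers. With edgeR and limma, 0 members passed the adjusted threshold in each of the 5 comparisons under every alternative run. The 16 fits that each left out 1 library are included. DESeq2 called 2 in mature LERKO against control (Steap4 0.77, Cxcl1 1.80) and 2 in mature against immature LERKO. The share of all genes that DESeq2 called was not counted, so these calls cannot be set against it.

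The median log2 fold change of members, in mature LERKO against control, in LERKO between stages, and in the difference of the LERKO effects, was 0.30, 0.29 and 0.46 with limma-voom quality weights and 0.17, 0.027 and 0.29 without library 4 of mature LERKO. It was 0.045, -0.078 and 0.087 when the 3 libraries rich in muscle transcripts were left out as well, an alternative added after seeing the data. Leaving out 1 library each gave 0.17 to 1.13, 0.027 to 1.18 and 0.29 to 1.31, with the lowest value in each always without library 4 of mature LERKO.

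In mature LERKO against control the sign turned for Orm1 with quality weights (-0.0295). It turned without library 4 for Orm1 (-0.31), Orm2 (-0.0155), Mt1 (-0.24) and Mt2 (-0.19), whose highest values without 1 other library were 2.36, 6.72, 1.90 and 2.51. With the muscle-rich libraries left out too, it turned for Orm1 (-0.36), Orm3 (-0.21), Mt1 (-0.64), Mt2 (-0.72), Fgb (-0.051), Serpina3n (-0.056) and Serpina3k (-0.0142). Over the fits without 1 library, Cd14 lay between -0.26 and 0.084, Il1rn between -0.88 and 0.22 and Il6ra between -0.34 and 0.0023, all 3 below 0 with all libraries together. The cause was not tested.

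Counts at an unadjusted p below 0.05, 24 in mature LERKO against control and 21 between stages in LERKO, were 10 and 9 with limma-voom, 2 and 3 with quality weights and 16 and 11 with DESeq2. Those of DESeq2 leave out any member whose p-value its outlier rule withheld. For the difference of effects, 18 became 2 with limma-voom, 1 with quality weights and 2 without the muscle-rich libraries. Fitting the compared groups alone gave 12 between stages in LERKO, 9 between stages in controls and 2 in immature mice. The share of all genes past that mark was not counted under these alternatives. It is therefore not known if these counts of members changed more than those of all genes. With 4 mice a group, 1 of which stands apart, effects of the size of the spread between mice could not be resolved.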
